A study of Homo sapiens with 9 samples.

Results

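Open chromatin was compared between K562 cells that carry the STAG2 R614* stop mutation on both alleles and K562 cells that carry it on one allele. Of the 9 ATAC-seq libraries of the study, 6 enter this comparison, 3 homozygous (-/-) and 3 heterozygous (+/-), chosen by the genotype in their labels. The other 3 are wild type K562 libraries, which were only looked up at the regions found. ATAC-seq marks open DNA by the insertions of the Tn5 transposase. K562 is an established human line with erythroid and megakaryocytic features, derived from chronic myeloid leukaemia. Both mutant lines were edited with CRISPR-Cas9, each genotype is represented by 1 line, and all 6 libraries were made from 50000 cells each in the same medium with serum. Only the homozygous cells are described as adherent and detached with trypsin, so the second mutant allele, the line and the mode of growth cannot be told apart. Nothing in the labels says that replicates came from separate cultures, and the spread between them may be technical.

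STAG2 is a subunit of cohesin, the ring complex that holds sister chromatids together and extrudes DNA loops. Cohesin halts at sites bound by CTCF, a zinc-finger protein whose motif marks many loop anchors, and the related subunit STAG1 can take the place of STAG2 in the ring. AP-1 factors are dimers of FOS, JUN and related proteins that open enhancers on growth, adhesion and stress signals, while GATA and RUNX factors are the main lineage regulators at blood-cell enhancers.

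The deposited lists hold peaks with a −log10 p and no read counts, and depth is unknown. The 6 lists had between 181579 and 319986 intervals. For each library the 50000 peaks with the highest −log10 p on chromosomes 1 to 22 and X were kept, and within these each peak was given a percentile, with 100 for the strongest. Absence from these 50000 is a statement about rank and not about closed chromatin. Start-site peaks of 7 or 8 of 10 K562 genes were found in each library, among them TAL1 and TFRC in all 6, while GATA1 and KLF1 had no start-site peak among the 50000 in any library, wild type included. A start-site peak here has its summit within 1 kb of a start. In or within 10 kb of GATA1, 2 of 3 merged regions held kept peaks of all 6 libraries, and 1 of 3 at KLF1. Of 12 genes typical of other cells, 4 to 6 had a start-site peak per library. The fibroblast and epithelial genes COL1A1, COL1A2, EPCAM and KRT8 had one in all 6 libraries. CD14, CSF1R, CD79A and CD3E were among those with 0. Heterozygous replicate 1 had 46.0% of its intervals, taken over the shorter list, at exactly the positions of wild type replicate 3, against 1.17% for heterozygous replicates 2 and 3. Wild type replicates 1 and 2 shared 23.2% in the same way. The region counts, the shares of motifs, annotation classes and wild type lists, the counts of genes, windows and chromosomes and the rank calls are also given without heterozygous replicate 1.

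The kept peaks of the 6 libraries merged into 98121 regions, and the median region was 547 bp wide. A set of 3092 (3.15%) occurred in all 3 homozygous and 0 of 3 heterozygous libraries, and 3353 (3.42%) in all 3 heterozygous and 0 of 3 homozygous libraries. They are called homozygous-only and heterozygous-only regions here. All 6 libraries shared 20601 regions (21.0%). Without heterozygous replicate 1, which asks for 3 libraries against 2, the counts were 3951 homozygous-only and 5656 heterozygous-only.

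The 4 homozygous-only regions below hold the AP-1 letters and are printed because the AP-1 shares of the 2 sets lay farthest apart among the 12 motifs. The first is one of the 6 strongest homozygous-only regions, and the other 3 are further strong ones with the motif, chosen after the motif shares were seen. Each line gives 151 bases of GRCh37, plus strand, centred on the summit and named by the gene with the nearest start site. Capitals mark every match to the 12 motifs searched on both strands: TGANTCA for AP-1, TGACGTCA for CRE-binding factors, TGGAATGT for TEAD factors, AGATAA for factors of the GATA family, TGTGGT for RUNX factors, CCGGAAGT for ETS factors, CCACACCC for KLF factors and CAGCTG for E-box factors, and the longer motifs of NF-E2, which contains the AP-1 letters, CTCF, NRF1 and STAT.
SMNDC1, chr10:112127827-112127977: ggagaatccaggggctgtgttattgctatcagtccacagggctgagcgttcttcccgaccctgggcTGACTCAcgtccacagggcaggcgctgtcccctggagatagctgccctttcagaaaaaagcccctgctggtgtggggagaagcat
KCNH5, chr14:63424449-63424599: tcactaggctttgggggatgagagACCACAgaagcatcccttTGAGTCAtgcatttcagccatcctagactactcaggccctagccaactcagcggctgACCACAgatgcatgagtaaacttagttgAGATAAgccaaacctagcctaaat
SOX21, chr13:95348570-95348720: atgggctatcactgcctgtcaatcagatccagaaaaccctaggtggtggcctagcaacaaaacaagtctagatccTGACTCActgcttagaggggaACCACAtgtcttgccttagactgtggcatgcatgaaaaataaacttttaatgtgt
MMADHC, chr2:150504928-150505078: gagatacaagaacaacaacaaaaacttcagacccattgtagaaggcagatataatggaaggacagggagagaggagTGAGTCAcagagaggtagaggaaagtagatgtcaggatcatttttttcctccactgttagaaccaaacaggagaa

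The SMNDC1, SOX21 and MMADHC sequences hold the AP-1 letters at positions 67, 76 and 77 of 151, next to the summit, and the KCNH5 sequence holds them at position 43. The KCNH5 region lies in an intron of that potassium channel gene, 87380 bp from its start. Its homozygous percentiles were 93.8, 96.2 and 96.3, no full heterozygous list had a peak there, and the kept peaks of 0 wild type libraries held it. The MMADHC region, in a long non-coding RNA gene, had homozygous percentiles of 94.8, 92.1 and 97.3 and was absent from the kept wild type peaks. The SOX21 region is intergenic, 16154 bp from that start site, with 92.8, 92.6 and 93.2 in the homozygous libraries and 14.03 in wild type replicate 3. The SMNDC1 region had 56.0 and 51.1 in wild type replicates 1 and 2, and weaker peaks in the full heterozygous lists at ranks 86461, 54155.5 and 77210.5. Full heterozygous lists also held a weaker peak at SOX21 in replicates 1 and 3, at 65915 and 171506, and at MMADHC in replicate 3, at 95214.

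The 5 sequences that follow are from heterozygous-only regions. The first 3 are strong ones with the CTCF letters, chosen after the motif shares were seen, and the last 2 are the strongest of the whole set.
NT5DC1, chr6:116433208-116433358: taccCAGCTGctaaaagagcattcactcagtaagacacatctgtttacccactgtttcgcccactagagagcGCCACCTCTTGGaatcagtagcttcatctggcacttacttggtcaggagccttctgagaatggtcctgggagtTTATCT
ZNF644, chr1:91631765-91631915: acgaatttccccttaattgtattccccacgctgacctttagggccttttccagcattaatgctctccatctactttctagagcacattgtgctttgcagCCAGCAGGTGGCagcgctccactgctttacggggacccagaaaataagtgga
GRIP1, chr12:67087750-67087900: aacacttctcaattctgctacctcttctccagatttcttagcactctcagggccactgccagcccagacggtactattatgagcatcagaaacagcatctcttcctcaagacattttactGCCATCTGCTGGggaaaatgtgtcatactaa
REEP3, chr10:66627398-66627548: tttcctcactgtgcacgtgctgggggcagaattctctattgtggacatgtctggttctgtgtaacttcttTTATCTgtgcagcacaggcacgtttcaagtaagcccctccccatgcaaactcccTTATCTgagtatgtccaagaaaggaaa
ROBO2, chr3:77228952-77229102: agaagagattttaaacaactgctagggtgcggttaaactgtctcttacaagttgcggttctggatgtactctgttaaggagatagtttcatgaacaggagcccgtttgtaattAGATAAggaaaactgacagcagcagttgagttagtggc

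The CTCF letters stand at position 73 in the NT5DC1 sequence, 100 in the ZNF644 sequence and 121 in the GRIP1 sequence. NT5DC1 and GRIP1 hold theirs in an intron, and the ZNF644 region is intergenic. The NT5DC1 region had percentiles of 88.8, 85.0 and 77.7 in the heterozygous libraries and 96.5, 96.7 and 92.3 in the wild type libraries. The GRIP1 region had 80.8, 72.5 and 75.9, and 80.4, 79.5 and 80.7 in wild type. The ZNF644 region had 95.2, 77.1 and 73.0, and 40.8, 33.3 and 94.3 in wild type. At NT5DC1 the full homozygous lists had weaker peaks at ranks 110780, 57279.5 and 62626. Homozygous replicates 2 and 3 had them at 76418.5 and 51589.5 for ZNF644 and at 63926.5 and 78333.5 for GRIP1. The REEP3 and ROBO2 sequences hold GATA letters and no CTCF letters.

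Over all 3092 homozygous-only regions, 31.3% held the AP-1 letters within the 151 bases. The share was 7.69% of the heterozygous-only regions, 8.60% of the regions in all 6 libraries and 13.0% of all regions. At positions 2 kb downstream it was 4.79%, 4.29% and 4.49% in the first 3 sets. The exact letters of NF-E2, the erythroid factor whose longer motif contains the AP-1 letters, were in 1.71% of the homozygous-only regions. Of the same regions, 29.6% held the AP-1 letters and not the NF-E2 motif. Which factors bind there was not tested. The CTCF letters showed the opposite order, with 1.68% of homozygous-only, 10.3% of heterozygous-only, 5.94% of shared and 6.19% of all regions. Their background 2 kb downstream was 0.356% and 0.447% in the 2 one-genotype sets. RUNX letters were in 12.9% of homozygous-only and 19.7% of heterozygous-only regions, and GATA letters in 18.4% and 13.6%. Their backgrounds 2 kb downstream were 11.2% and 12.4% for RUNX and 9.99% and 10.9% for GATA. Median GC content was 49.7% and 49.0% in the 2 sets. Regions are not replicates, so these shares carry no test. Without heterozygous replicate 1 the AP-1 letters were in 28.6% and 7.62% and the CTCF letters in 2.53% and 9.14% of the 2 sets.

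The AP-1 share of homozygous-only regions varied with position. It was 34.7% in introns, 30.7% between genes and 13.2% near start sites. Among heterozygous-only regions, the CTCF letters were in 12.2% of intergenic, 10.1% of intronic and 4.79% of start-site regions. Where absence meant no peak anywhere in the 3 full heterozygous lists, which left 616 homozygous-only regions, 40.1% held the AP-1 letters. The same rule left 301 heterozygous-only regions, of which 5.98% held the CTCF letters, less than the 10.3% of all heterozygous-only regions and the 6.19% of all regions.

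Over the 50000 peaks of each library, AP-1 letters lay within 50 bp of 9.73%, 9.32% and 11.7% of summits in homozygous replicates 1 to 3 and of 6.64%, 6.68% and 6.54% in heterozygous replicates 1 to 3. The means were 10.3% ± 1.28 and 6.62% ± 0.0707 (SD, n = 3 each). All 3 homozygous libraries stood above all 3 heterozygous ones, with replicate 3 the highest. CTCF letters were at 4.05%, 3.82% and 3.48% of homozygous and 4.89%, 5.21% and 5.05% of heterozygous summits, with means of 3.79% ± 0.288 and 5.05% ± 0.158 (SD, n = 3 each). RUNX letters were at 8.88% ± 0.146 and 10.2% ± 0.182 (SD, n = 3 each), lower in each homozygous library. NF-E2 letters at 0.901% ± 0.0390 against 0.749% ± 0.0147, and GATA letters at 7.42% ± 0.210 against 6.70% ± 0.0699, were higher in each homozygous library (SD, n = 3 each). Of 12 motifs, 4 had higher (33.3%) and 2 lower (16.7%) homozygous shares with no overlap between the groups. Each of these 6 gave the smallest p that 3 against 3 libraries allow in an exact two-sided permutation test, 0.1, adjusted 0.2 over the 12 motifs, so none could pass a threshold of 0.05. Median GC content at the summits was 54.5% in every library. In the full lists the CTCF shares overlapped, at 2.08% and 2.31%, while those of AP-1 stayed apart at 7.55% and 5.37%.

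**Figure D1:**
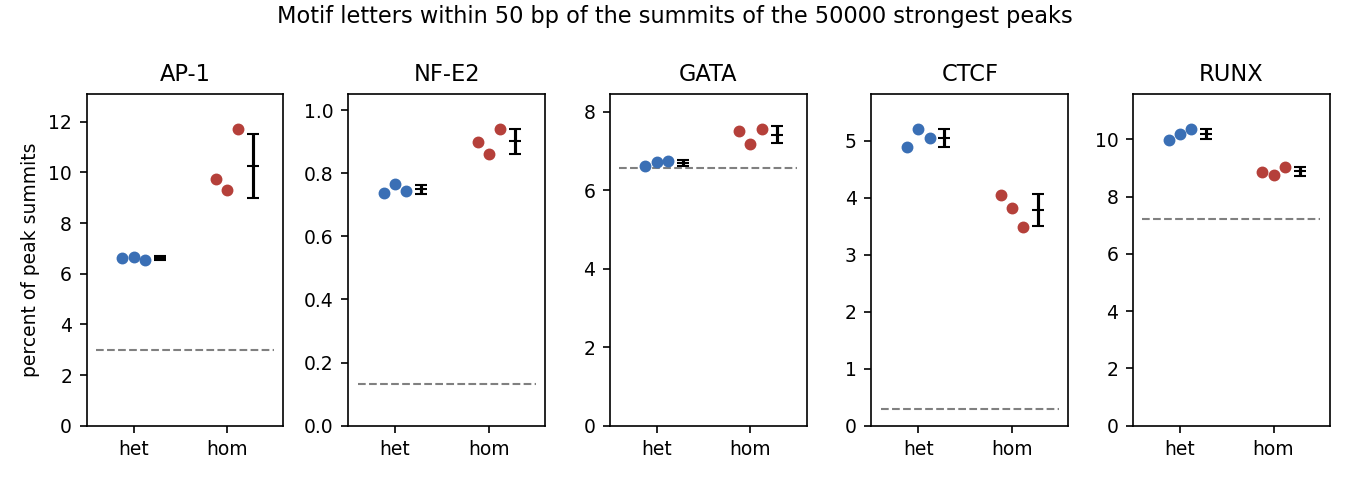
Percent of the 50000 strongest peaks per library with the letters of 5 motifs within 50 bp of the summit, for the heterozygous (het, blue) and homozygous (hom, red) replicates; bars give the mean and SD, and the dashed line the share 2 kb downstream. AP-1 shares lie between 9.32% and 11.7% in homozygous and at 6.68% or less in heterozygous libraries, and CTCF shares lie the other way round.

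The wild type lists divided the 2 sets differently. Of the homozygous-only regions, 1924 (62.2%) were in 0 wild type lists and 104 in all 3, whereas 1664 heterozygous-only regions (49.6%) were in all 3 and 162 (4.83%) in 0. Another 929 heterozygous-only regions (27.7%) were in wild type replicate 3 alone, the library that shares intervals with heterozygous replicate 1. A further 619 homozygous-only regions were in wild type replicates 1 and 2, which also share intervals, and not in 3. Without heterozygous replicate 1, 50.5% of homozygous-only regions were in 0 wild type lists and 11.4% in all 3, and 31.6% of heterozygous-only regions were in all 3 and 25.8% in 0. The sets were thus less far apart without that library, and 18.8% of heterozygous-only regions were still in wild type replicate 3 alone. The homozygous-only regions missing from all wild type lists held the AP-1 letters in 34.9% of cases, and those in all 3 in 25.0%.

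**Figure D2:**
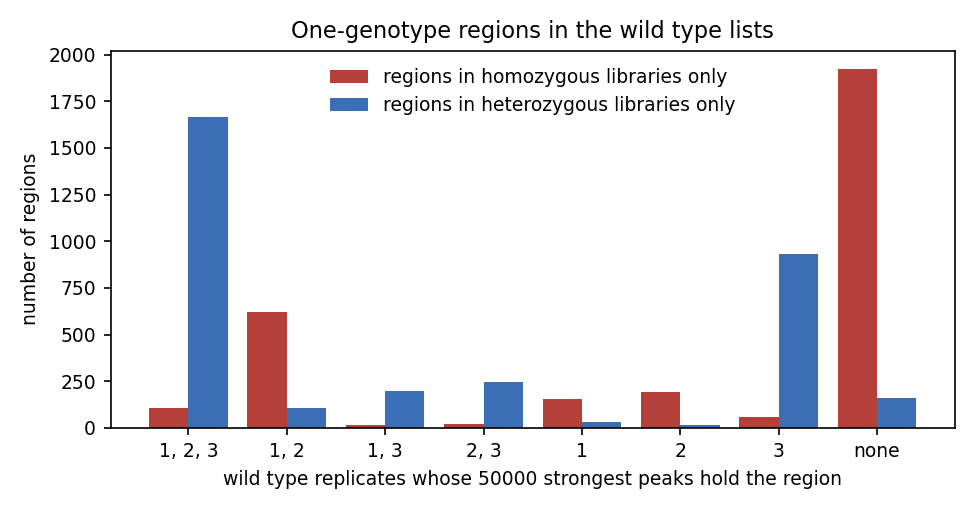
Number of homozygous-only (red) and heterozygous-only (blue) regions by the wild type replicates whose 50000 strongest peaks also hold the region. The highest red bar, 1924 regions, is in none of the 3, and the highest blue bar, 1664 regions, in all 3.

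A weaker peak lay in all 3 full lists of the other genotype for 37.9% of homozygous-only and 40.4% of heterozygous-only regions, and in none of them for 19.9% and 8.98%. In their own lists these regions had a median rank of 25837 and 28302, while the weaker peak in the other genotype had a median rank of 96458 and 97274. Their lowest percentile in the 3 libraries that have them was at least 90 for 19 homozygous-only and 13 heterozygous-only regions.

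Few regions of either set lay near a start site. A start site within 1 kb was found for 212 homozygous-only regions (6.86%) and 188 heterozygous-only regions (5.61%), against 41.5% of the regions in all 6 libraries and 7.53% of the regions with any other pattern. The homozygous-only share was 13.9% with 30000 peaks kept, 10.3% at a −log10 q of at least 5 and 3.93% with the full lists. Without heterozygous replicate 1 the shares were 8.30% and 5.45%, and without homozygous replicate 2 their order turned, at 6.18% and 6.79%. Taken by class, 1.48% of all start-site regions were homozygous-only and 1.31% heterozygous-only, each under the 3.15% and 3.42% of all regions. Of intron regions 3.37% and 3.77%, and of intergenic regions 3.57% and 3.80%, were in the 2 sets. Exons of protein-coding genes had the widest gap, with 2.54% homozygous-only and 4.11% heterozygous-only. These exon values were 3.38% and 7.29% without heterozygous replicate 1, and those of start sites 2.33% and 2.18%. The share of each library's 50000 peaks near a start site did not separate the genotypes, at 23.7% ± 0.722 in homozygous and 23.3% ± 0.0591 in heterozygous libraries (SD, n = 3 each), with p = 0.4 in the exact two-sided permutation test. Near start sites, too, the wild type lists differed: 116 of the 212 homozygous-only regions (54.7%) were in 0 wild type lists, and 98 of the 188 heterozygous-only regions (52.1%) were in all 3. These counts include wild type replicate 3, which shares intervals with heterozygous replicate 1.

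**Figure D3:**
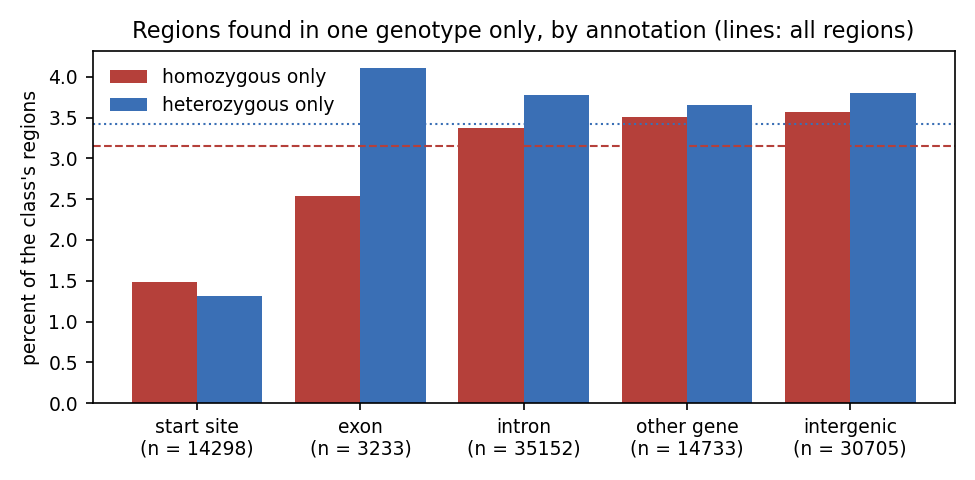
Percent of the regions of each annotation class that are homozygous-only (red) or heterozygous-only (blue), with the number of regions of the class below; the dashed and dotted lines give the percent over all regions. Start-site regions lie below both lines, at 1.48% and 1.31%, and exon regions have the widest gap.

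By the naming rule, the 6 strongest regions of each set were described by their lowest percentile. The strongest homozygous-only region lay within a POTEA intron (chromosome 8, 43160033 to 43160580), with percentiles of 97.0, 97.4 and 97.7. It was followed by a region on chromosome 13 (80622838 to 80623358) in a long non-coding RNA gene 290703 bp from SPRY2, an inhibitor of receptor tyrosine kinase signalling, with 99.1, 96.6 and 98.6. The region near SMNDC1 (chromosome 10, 112127641 to 112128211), a splicing factor gene, had 95.7, 96.2 and 96.6. A chromosome 4 region (170256327 to 170256964) 64492 bp from SH3RF1, a scaffold of JNK signalling, had 96.0, 95.0 and 97.8 and was absent from the kept wild type peaks. The full wild type lists held a weaker peak there at ranks 83518, 205088 and 79046.5. A chromosome 8 region (118184094 to 118184992) in an intron of SLC30A8, a zinc transporter gene, had 95.4, 98.3 and 94.0, and was as strong in wild type replicates 1 and 2, at 95.3 and 98.3.

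Among start-site regions, the strongest homozygous-only one was 275 bp from a start of SIPA1L1 (chromosome 14, 71995513 to 71996027), a regulator of the small GTPase Rap, with percentiles of 99.3, 98.9 and 95.1. The next were at FOXF2, a forkhead transcription factor gene, with 91.7, 97.7 and 93.3, and at CYB5A, which encodes cytochrome b5, with 91.4, 94.6 and 98.3. Those at VCX, FEZF2, a forebrain transcription factor gene, and CD226, an adhesion receptor of lymphocytes and platelets, had lowest percentiles of 90.1, 85.6 and 77.9. All 6 were among the kept peaks of 1 or 2 wild type libraries and never of replicate 3. The full list of wild type replicate 3 held a weaker peak at each, at ranks from 56499.5 to 116756. At SIPA1L1 the full heterozygous lists had a peak at ranks 86461, 63755 and 106030, against 360, 555 and 2436.5 in the homozygous lists.

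The strongest heterozygous-only region lay on chromosome 10 (66626837 to 66627923), in a gene-poor stretch 1346312 bp away from REEP3, whose start site is the nearest. Its percentiles were 98.1, 99.9 and 99.1, and 96.4, 96.6 and 98.5 in wild type. The full homozygous lists held a peak there at ranks 117804, 73580.5 and 95119.5. The ROBO2 intron region (chromosome 3, 77228751 to 77229373), in a gene for a SLIT receptor of axon guidance, had 96.8, 99.8 and 96.5, and no homozygous full list had a peak there. The DAB1 intron region (chromosome 1, 58717280 to 58717792), in the gene of an adaptor of reelin signalling, had 95.3, 95.2 and 97.0. The other 3 lay 79840 bp from CNTN5, 587967 bp from CBLB and 1685256 bp from MRPL39, with lowest percentiles of 94.5, 93.7 and 93.4.

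Heterozygous-only start-site regions were led by ARID4A, a gene for a retinoblastoma-binding chromatin protein (chromosome 14, 58797663 to 58798182), with percentiles of 94.4, 88.9 and 94.3. LIG4, the DNA ligase of end joining (chromosome 13, 108867597 to 108868204), followed with 89.97, 85.5 and 86.4. The full homozygous lists had no peak at the LIG4 region, whereas wild type percentiles were 98.4, 97.6 and 91.6. BAIAP2, an adaptor of actin remodelling, SFRP4, a Wnt inhibitor, SYT10, a synaptotagmin, and FER, a tyrosine kinase at cell junctions, had lowest percentiles of 83.5, 75.2, 73.0 and 70.8. All 6 start sites were among the kept peaks of all 3 wild type libraries, in contrast to the 6 of the homozygous-only set. Both sets were chosen partly by heterozygous replicate 1, which shares intervals with wild type replicate 3, so the contrast is not independent of that choice.

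By gene, 1715 of 20090 protein-coding genes (8.54%) had a homozygous-only region in the gene body or within 10 kb, 1908 (9.50%) a heterozygous-only region, and 299 both. With heterozygous replicate 1 left out they numbered 2257 and 2999. The genes with the most homozygous-only regions were long. TBC1D5, a regulator of endosomal Rab proteins that spans 1288 kb, had 11 homozygous-only and 5 heterozygous-only among 94 regions. MAML3, a coactivator of Notch, had 9 and 0 among 39 regions. Its kept regions numbered 22, 21 and 27 in the homozygous and 7 in each heterozygous library. SH3KBP1, an adaptor of receptor endocytosis, and TRIO, an exchange factor for small GTPases, had 7 each and 1 heterozygous-only region each. DMD, which encodes dystrophin, and DDX60L, a helicase gene, had 6 and 0. Of the 7 TRIO regions all were absent from the kept wild type peaks, and of the 6 DMD regions 1 was.

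Heterozygous-only regions were most numerous at clustered protocadherins. PCDHGA1 and PCDHGA2 had 7 each, and PCDHGA3 and PCDHGB1 had 6 each. These gene models overlap and share their last exons, so the same regions are counted for several. ADGRB3, an adhesion receptor of neurons, had 7 of 33 regions, and DAB1 had 6 heterozygous-only and 1 homozygous-only. Outside the rule and chosen after values were seen, PTPRC, which encodes the leukocyte phosphatase CD45, had 5 of 10 regions heterozygous-only, 4 of them with percentiles of at least 72.6 in each heterozygous library. All 5 were also in all 3 wild type lists, and the kept regions at PTPRC numbered 8, 7 and 9 in heterozygous and 2, 1 and 1 in homozygous libraries.

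In windows of 1 Mb, 83 of 2879 (2.88%) held at least 5 homozygous-only and 114 (3.96%) at least 5 heterozygous-only regions. With heterozygous replicate 1 left out, 149 and 329 of 2877 windows did. The window with the most homozygous-only regions, chromosome 5 from 14 to 15 Mb, held 14, of which 7 lay in introns of TRIO and 5 had ANKH, a pyrophosphate transporter gene, as the nearest start site. In that window 48, 52 and 53 regions were kept in the homozygous libraries and 23, 24 and 24 in the heterozygous ones. Chromosome 15 from 88 to 89 Mb held 11, around NTRK3, the neurotrophin-3 receptor gene, and 5 of them were in its introns. Chromosome 1 from 214 to 215 Mb held 9, with 4 nearest CENPF, a kinetochore gene, 3 in introns of PTPN14, a tyrosine phosphatase gene, and 1 each nearest the starts of PTPN14 and PROX1.

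The opposite pattern was densest on chromosome 10 from 66 to 67 Mb, with 16 heterozygous-only and 0 homozygous-only regions and 0 in all 6 libraries. The kept regions there numbered 21, 28 and 25 in heterozygous and 2, 4 and 1 in homozygous libraries, and 13, 13 and 22 in wild type. Chromosome 5 from 140 to 141 Mb held 11, of which 9 lay within 1 kb of protocadherin start sites: PCDHA5, PCDHB3, PCDHB6, PCDHGA1, PCDHGB2, PCDHGA9, PCDHGB6, PCDHGB7 and PCDHGA12. Clustered protocadherins are cell-surface proteins of neurons whose alternative promoters carry CTCF sites. At PCDHGA9 the heterozygous percentiles were 88.6, 61.4 and 76.7, and the wild type percentiles 62.1, 61.9 and 86.8.

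Counted over the full lists relative to their lengths, 144 of 2701 windows (5.33%) had at least 2 times as many homozygous as heterozygous peaks with no overlap between groups, and 56 (2.07%) at most 1 in 2 as many. The first kind lay most on chromosomes 15 (20 windows) and 17 (18), and the second on chromosome 2 (14). The lowest ratio, 0.135, was on chromosome 3 from 77 to 78 Mb, at ROBO2, where the homozygous full lists had 8, 7 and 20 peaks and the heterozygous ones 94, 71 and 64. The highest, 3.69, was on chromosome 20 from 46 to 47 Mb, with 28, 32 and 73 against 13, 11 and 8.

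Whole chromosomes differed too. The homozygous share of the 50000 peaks was higher on 9 of 23 chromosomes (39.1%), 8 and 15 to 22, and lower on 8 (34.8%), 1, 2, 3, 4, 12, 13, 14 and X, with no overlap between the groups. The counts were also 9 and 8 without heterozygous replicate 1, but 5 and 0 with 100000 peaks kept, 7 and 5 by fold enrichment and 10 and 3 with the full lists. Chromosome 22 held 1.41%, 1.44% and 1.40% of peaks in homozygous and 1.01%, 1.07% and 1.01% in heterozygous libraries. Chromosome 19 held 3.10% ± 0.0802 and 2.45% ± 0.0291, and chromosome 14 held 2.28% ± 0.0569 and 2.58% ± 0.0735 (SD, n = 3 each). With the full lists the chromosome 14 difference turned, to 0.0380 percentage points. Each of the 17 gave an exact two-sided permutation p of 0.1, adjusted 0.135 over 23 chromosomes. One-genotype regions numbered 57 homozygous-only and 6 heterozygous-only of 1151 on chromosome 22, and 86 and 21 of 2292 on chromosome 19. On chromosome 14 they numbered 55 and 106 of 2348. These were 4.95% and 0.521% on chromosome 22, 3.75% and 0.916% on chromosome 19, and 2.34% and 4.51% on chromosome 14. Over all regions the shares were 3.15% and 3.42%. The counts were closer on chromosome 16, at 58 and 54 of 2372. Chromosomes 5 and 6, whose peak shares overlapped, had 229 and 199 of 6213 and 210 and 256 of 7270. The chromosome 6 counts were 2.89% and 3.52% of its regions. Read counts are not in the lists, and copy number was not tested.

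**Figure D4:**
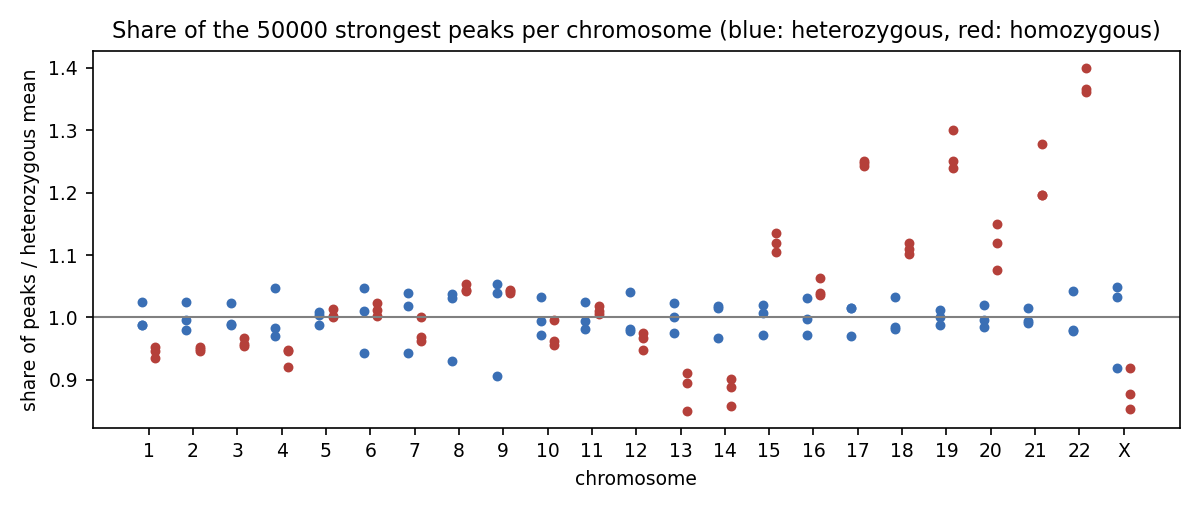
Share of the 50000 strongest peaks on each chromosome, divided by the mean of the 3 heterozygous libraries, for each heterozygous (blue) and homozygous (red) library; the line marks a ratio of 1. Homozygous points lie above all heterozygous points on chromosomes 8 and 15 to 22, and highest on chromosome 22.

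The regions in all 6 libraries were compared by rank, with limma on normal scores of the percentile. Of 20601 regions, 96 (0.466%) ranked higher and 76 (0.369%) lower in homozygous libraries at an adjusted p under 0.05. The number of calls fell when libraries were left out: without heterozygous replicate 1 they numbered 32 and 8, without homozygous replicate 3 18 and 35, and without any 1 of the other 4 libraries limma called 0. In those 4 fits the smallest adjusted p was 0.0572 to 0.0851, with 1522 to 1569 regions higher and 1347 to 2162 lower at an unadjusted p under 0.05. Introns held 44.8% of those ranked higher and 46.1% of those ranked lower, against 23.2% of all shared regions, and start sites 15.6% and 10.5% against 41.5%, with no test of these shares. AP-1 letters were in 15 of the 96 ranked higher (15.6%) and 5 of the 76 ranked lower (6.58%), against 8.60% of all shared regions, also with no test.

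The largest change was in an intron of ITGA2, the alpha subunit of a collagen-binding integrin (chromosome 5, 52315013 to 52315578). Its percentiles were 91.2, 98.5 and 97.9 in homozygous and 29.1, 0.945 and 6.81 in heterozygous libraries, and 81.0, 33.7 and 20.4 in wild type. The difference in normal score was 3.32 ± 0.482 (SE; limma, adjusted p = 0.0229), and 2.88 to 3.77 over the 6 fits that leave out 1 library. Both homozygous-only regions of the adhesion genes listed also lay in ITGA2 introns, with percentiles of 72.8, 19.3 and 86.1 and of 44.1, 62.1 and 25.5. The kept peaks of 0 wild type libraries held either, while full wild type lists had weaker peaks at both. The ITGA2 start site was kept in 5 of the 6 libraries, at 47.2, 54.9 and 34.5 in heterozygous and 41.6 and 46.6 in homozygous replicates 1 and 2.

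An exon of ADGRG6, an adhesion receptor (chromosome 6, 142721451 to 142722412), had percentiles of 91.2, 89.3 and 99.3 against 21.9, 1.96 and 12.3, and an intron of PALLD, the actin-bundling protein palladin (chromosome 4, 169490106 to 169490651), had 97.6, 98.1 and 98.9 against 5.76, 38.7 and 36.97. The PALLD region was at 91.1, 93.0 and 73.3 in wild type. The others that ranked higher lay 182918 bp from FAM20C (chromosome 7, 9794 to 10396), 48995 bp from KIAA0408 and 19694 bp from ABCG1, a cholesterol exporter gene. Those that ranked lower were led by an intron of DYNLT5, a dynein light chain gene (chromosome 1, 67223368 to 67224379), with 36.1, 27.5 and 2.82 in homozygous and 98.98, 98.2 and 98.0 in heterozygous libraries. A region in RPS29, a ribosomal protein gene, fell from 91.2, 86.2 and 78.5 to 7.08, 3.07 and 4.03. The GIMD1 start site, and regions 106487 bp from PDCD6IP, 66425 bp from GPR135 and 17050 bp from ACADM, completed the 6.

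**Figure D5:**
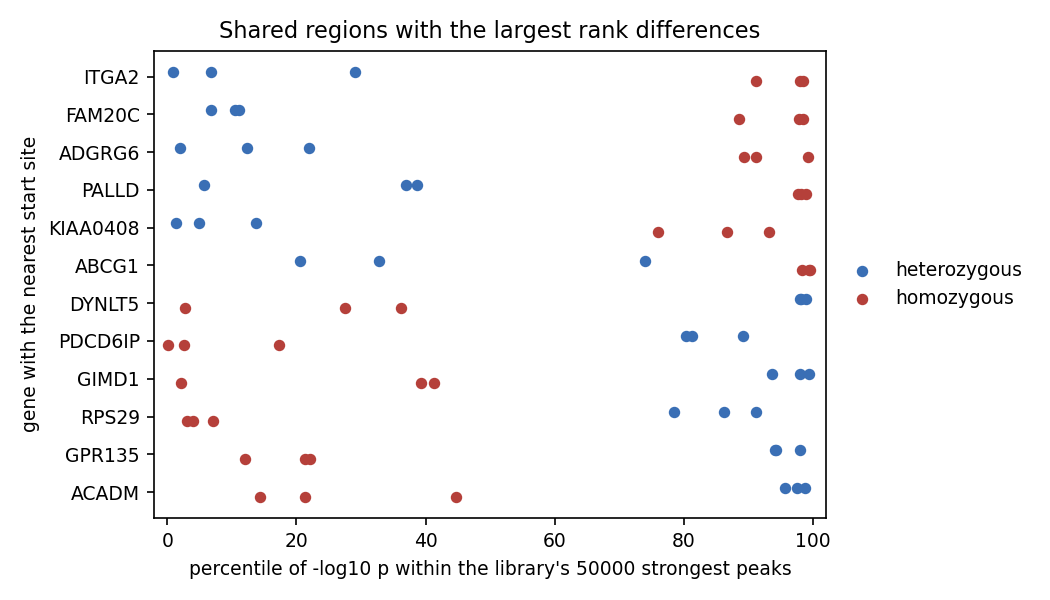
Percentile of −log10 p within each library's 50000 strongest peaks for the 12 shared regions with the largest rank differences, labelled by the gene with the nearest start site; heterozygous libraries in blue and homozygous libraries in red. The 6 upper regions have higher homozygous percentiles and the 6 lower regions higher heterozygous ones.

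Gene lists chosen with earlier results of these data known were counted against the background of 3.15% and 3.42%. Over the 13 lists, 13 of 738 regions were homozygous-only (1.76%) and 31 heterozygous-only (4.20%), with a region counted once for each list. Of 68 regions at 13 cohesin and loop genes, 1 (1.47%) was homozygous-only, within 10 kb of RAD21, the cohesin kleisin, and 7 (10.3%) were heterozygous-only, 4 of them in the model of STAG2 and 1 each in STAG1, the STAG2 paralog, PDS5B, a cohesin regulator, and MAU2, a cohesin loader subunit. Both STAG2 start-site regions (chromosome X, 123093341 to 123096095 and 123096626 to 123097314) were in all 6 libraries, at 74.8, 97.2 and 60.8 and at 76.2, 72.0 and 80.6 in the homozygous ones. The annotated STAG2 model is 462 kb long and runs across SH2D1A and TEX13D, and the 4 heterozygous-only regions lie in that distal part, 1 of them 163 bp from the start of SH2D1A. The heterozygous percentiles at the 2 start-site regions were 57.9, 53.6 and 98.2 and 97.5, 95.5 and 85.6, so the groups overlapped at the first and did not at the second. Over all shared regions 12.2% had all homozygous below all heterozygous percentiles, and limma gave the second an adjusted p of 0.193.

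At 12 AP-1 family genes, 3 of 46 regions (6.52%) were homozygous-only and 0 heterozygous-only. The FOSB region (chromosome 19, 45970570 to 45971463), 306 bp from its start, had 54.9, 42.7 and 37.9 and was absent from the kept wild type peaks. In the full wild type lists it had a weaker peak at ranks 78421, 113826 and 74219. The region counted for FOSL1 is at the start of its neighbour CCDC85B, and that for MAFF is 63 bp from a start of PLA2G6. The 12 TEAD and YAP pathway genes had 1 and 2 of 74 regions. The homozygous-only one was 3559 bp from CCN2, a YAP target, with 88.0, 89.1 and 5.67. The adhesion list had 2 and 5 of 106, the heterozygous-only ones at ITGB1, ITGA5 and CD44, and 12 actin regulator genes had 2 and 5 of 79, with ROCK2 and TPM1 on the homozygous side and ARHGAP18, DLC1 and ROCK2 on the other.

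Among 14 genes for erythroid products, 0 of 78 regions were homozygous-only and 6 (7.69%) heterozygous-only. Of these, 2 lay in long annotated transcripts of HBE1, an embryonic globin gene, nearest the start sites of OR52D1 and OR51B4. The 12 erythroid regulators had 1 and 1 of 62, 9461 bp from TAL1 with 52.2, 56.3 and 64.5 and at IKZF1 with 37.5, 65.9 and 63.3. Progenitor regulators had 1 and 1 of 94, at ERG and next to HOXA9, and 10 megakaryocyte genes had 0 and 0 of 25. The mesenchymal list had 0 and 2 of 40, both in introns of ZEB1, an inducer of mesenchymal state.

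Of the markers of other cell types, the myeloid ones had 0 and 1 (5.88%) of 17 regions, next to LYZ, and lymphoid markers 0 and 0 of 14. Fibroblast and epithelial markers had 2 (5.71%) and 1 (2.86%) of 35, with homozygous-only regions 10261 bp from EPCAM and 7204 bp from COL1A1 and a heterozygous-only one at DCN. DCN, a matrix proteoglycan gene, had a start-site peak among the kept peaks of 3 heterozygous and 0 homozygous libraries, at percentiles of 22.2, 27.3 and 65.3. The full homozygous lists held a weaker peak there at ranks 54074.5, 63660 and 59063, against 38914, 36338 and 17364.5 in the heterozygous lists. The part of other cell types in these counts was not tested.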

How the data were processed

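ATAC-seq peak lists of 9 K562 libraries were used, 3 per STAG2 genotype. Per the submitters' processing notes, cutadapt, Bowtie2 2.2.9, Picard and MACS2 2.1.0 were used, with the builds hg19 and GRCh37 named; their settings are not given in the sources used here. The deposited lists have 10 columns and no header. In the deposited files column 7 was read as a fold enrichment ratio, column 8 as −log10 p and column 9 as −log10 q, as the authors' narrowPeak format has them. Column 5 is a deposited score and was not used. In the deposited lists 17.2% to 19.2% of the intervals are joined peaks with averaged values, and 39.6% to 50.1% of the kept ones; where a joined summit could not be placed, the middle of the interval was used. Read counts are not in these files, so depth and counting error are unknown.

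The 50000 rows with the highest −log10 p per list, on chromosomes 1 to 22 and X, were merged by 1 bp overlap and annotated with GENCODE 44 start sites (78394) lifted to GRCh37. A start-site region lies within 1 kb of a protein-coding start. Normal scores of percentiles in regions of all 6 lists were computed with scipy 1.17.1 and fitted with limma 3.58.1 (R 4.3.3, trended variance, Benjamini-Hochberg). Shares per library were compared with exact two-sided permutation tests. Scores were also simulated over 20601 regions, with independent normal noise and the same spread for regions of similar mean score. On these the fit called 6, 40, 49 and 50 of 50 regions shifted by 1, 2, 3 and 4 units, and 7 of 20401 unshifted ones. Real spreads can differ between regions of similar mean, so these rates may not hold for the real lists. Python 3.11.15, pandas 2.3.3, numpy 2.4.6 and matplotlib 3.10.9 were used.

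The comparison, the gene lists and the motifs were chosen with earlier results of these data known. Named were, in each direction, the 6 regions and the 6 start-site regions with the highest lowest percentile, the 6 genes with the most one-genotype regions, the 6 called shared regions with the largest difference, up to 4 genes per list and the 3 windows of 1 Mb with the most regions. Alternatives were the number of peaks kept, the ranking column, a q threshold, the overlap, the interval width, strict absence, distances and windows, the replicate block and leaving out each library. Some members of the lists and one of the windows so chosen are not reported here.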

Additional observations from a re-analysis of the deposited data

How the results depend on the processing

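Homozygous-only regions numbered 1842 with 30000 peaks kept, 5202 with 100000, 8975 with the full lists, 1121 at a −log10 q of at least 5 and 616 where no full heterozygous list had a peak. Heterozygous-only regions numbered 2093 with 30000, 4867 with 100000, 7924 with the full lists, 2893 at that −log10 q and 301 under strict absence. Leaving out 1 library gave 3631 to 5179 homozygous-only and 4490 to 5656 heterozygous-only regions. The AP-1 share of homozygous-only regions stayed at 27.5% with 30000, 30.4% with 100000 and 26.0% with the full lists, while the CTCF share of heterozygous-only regions was 2.88% with the full lists and 5.98% under strict absence; the cause was not tested. With limma, shared regions ranked higher and lower numbered 277 and 296 with 100000 peaks, 31 and 25 with 30000, and 0 and 0 both on percentiles without the normal score (1758 and 1858 at an unadjusted p under 0.05) and by fold enrichment (1159 and 1436). Leaving out 1 library gave 0 to 32 higher and 0 to 35 lower. With the replicate number as a block, limma called 31 and 31. The numbers do not pair the libraries: the correlations of same-numbered deviations were 0.00594, 0.0128 and 0.0147. With the full lists, the homozygous minus heterozygous share turned to 0.152 percentage points for exons and to 0.0380 for chromosome 14. Over all gene lists, homozygous-only regions numbered 7 in gene bodies alone and 32 within 50 kb, and heterozygous-only regions 55 within 50 kb. Of the 90 named regions, 74 changed status in the full lists.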
